A study of Mus musculus with 2 samples.

Results

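Dendritic cells present antigen to T cells, and in the mouse spleen they fall into subsets that are told apart by a few receptors and transcription factors. The genes examined here were 10 such genes, taken by their symbols from the gene tables of 2 RNA-seq libraries of regulatory T (Treg) cells: Siglech and Tcf4 for plasmacytoid dendritic cells, Batf3, Clec9a and Irf8 for type 1 conventional dendritic cells, Clec4a4, Clec10a and Esam for type 2 conventional dendritic cells, and Zbtb46 and Flt3, which are shared by conventional dendritic cells or by the whole lineage. All 10 were found among the 20938 genes of the tables, all had reads in both libraries, and all passed the filter on low values described below.

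One library came from Foxp3-Mettl14f/+ cKO mice and the other from littermate controls, with 1 library per genotype. Both groups were on the C57BL/6J background, were made diabetic with streptozotocin, received BALB/c islets under the kidney capsule, and gave spleen cells on day 7 without tolerance-inducing antibodies. In the cKO mice a Cre driven by Foxp3 deleted 1 floxed allele of Mettl14, the m6A methyltransferase subunit, so the deletion was heterozygous and limited to cells that had expressed Foxp3, whereas the littermate controls were genotyped as floxed without the Cre. The GEO labels call the control wild type and the other library a knockdown of Foxp3; whether the RNA of several animals was pooled is not given in the sources used here. The cells were enriched on beads by depletion of cells other than CD4+ T cells and then by selection of CD25+ cells, so a dendritic cell gene in these libraries was measured in a preparation meant to hold T cells.

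Plasmacytoid dendritic cells are known for their interferon response to nucleic acids, and they depend on the E protein that Tcf4 encodes. Type 1 cells are known for taking up dead cells and presenting their antigens to CD8+ T cells, and they need Irf8 and Batf3. Type 2 cells present antigen to CD4+ T cells, and in the spleen those that carry ESAM depend on Notch2 signalling. FLT3 ligand, acting through the receptor FLT3, drives the growth of the whole lineage. Several of these genes are also used elsewhere: Irf8 and Tcf4 by B cells, Irf8 by macrophages, Flt3 by blood progenitors, Esam and Zbtb46 by endothelium, and Batf3 by activated T cells.

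The library totals were 20239325 reads for the control and 18327535 for the cKO. The deposited level of a gene was its read count divided by 1 size factor per library. A difference below is log2((cKO level + 1)/(control level + 1)), taken over the 16659 genes whose mean level reached 1, and the range in brackets after it is a 95% exact Clopper-Pearson interval of the recovered counts. Such ranges hold the counting error of reads alone and not the spread between animals. Without molecular identifiers PCR copies of a molecule are counted again, so the ranges can be too narrow even for the counting of molecules. There was no replicate of either genotype, so no difference has a replicate check, and genotype and library cannot be told apart. Mettl14 itself had 948 control and 652 cKO reads, a difference of -0.31 (-0.45 to -0.16). The T cell core genes described below had a median difference of -0.31 too. The Mettl14 difference was thus no larger than that of T cell genes in general. Foxp3 had 1547 and 1361 reads, a difference of 0.05 (-0.06 to 0.15), so Foxp3 mRNA was not detectably lower in the library labelled as a knockdown of Foxp3. In bulk RNA, fewer or more cells of a type and less or more RNA per cell cannot be told apart.

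A call here means a change of at least 1.5-fold. Of the 10 genes, 3 were called higher in the cKO library, namely Siglech, Tcf4 and Irf8, and 0 were called lower; over all genes tested 17.2% were called higher and 24.2% lower. An exact binomial test of each gene's recovered reads, a comparison of these 2 libraries rather than of the genotypes, called the same 3 genes higher and 0 lower, against 14.8% and 17.6% of the 14863 genes with at least 10 reads. When a spread between animals was assumed in edgeR's exact test, a coefficient of variation of 0.2 left 1 of the 10 called higher, Siglech, against 6.26% of all genes. A coefficient of 0.4 left 0 called higher, against 1.54% of all genes, and no gene of the 10 had an unadjusted p under 0.05. The share of calls among the 10 thus depends on how much spread between animals is assumed, which these libraries do not give. The median difference of the 10 genes was 0.13, and that of all genes tested was -0.04.

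Both plasmacytoid genes were called higher, which held for neither of the other subsets. Siglech encodes a receptor of the Siglec family on the plasmacytoid cell surface, at chr7:55768178-55778925 on the plus strand of GRCm38 (mm10). It had 105 control and 200 cKO reads, that is, deposited levels of 102 and 227. The difference was 1.16 (0.81 to 1.52), a 2.23-fold higher level in the cKO library, and it was higher than that of 91.0% of the genes tested. Tcf4 had 942 and 1234 reads, or levels of 911 and 1403. Its difference of 0.62 (0.50 to 0.75), or 1.54-fold, lies just past the threshold, the interval reaches below it, and with library totals in place of the deposited scaling the gene is no longer called. Siglech moved further than Tcf4: the ratio of Siglech to Tcf4 reads was higher in the cKO library by 0.54 on the log2 scale (0.17 to 0.92).

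Among the type 1 genes, Irf8 stood apart from Batf3 and Clec9a. Irf8 (chr8:120736358-120756694, plus strand), an interferon regulatory factor that also serves B cells and macrophages, had 2095 control and 3579 cKO reads. Its levels were 2027 and 4070, and the difference was 1.01 (0.93 to 1.08), or 2.01-fold higher in the cKO library. Batf3 (chr1:191097847-191108945, plus strand), a basic leucine zipper factor that partners IRF proteins, had 62 and 58 reads, or levels of 60.0 and 66.0. The Batf3 difference of 0.13 (-0.40 to 0.68) holds 0. Clec9a (chr6:129408862-129424763, plus strand), the receptor by which type 1 cells bind the exposed actin of dead cells, had 174 control and 124 cKO reads, or levels of 168 and 141. The Clec9a difference of -0.25 (-0.60 to 0.09) also holds 0, and it was above 0 only with T cell genes set equal between the libraries. Relative to Irf8, both fell behind: Clec9a over Irf8 differed by -1.26 (-1.61 to -0.91) and Batf3 over Irf8 by -0.87 (-1.42 to -0.32). Clec9a and Batf3 did not separate from each other, with a ratio that differed by 0.39 (-0.26 to 1.04) for Batf3 over Clec9a.

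The starts of Siglech and Irf8, which were called higher, and of Clec9a, one of the type 1 genes that were not, are shown to place the E protein and IRF sites that such factors read. Each line holds the 250 bases before the RefSeq start on GRCm38.p6, on the gene's own strand, and capitals mark the E protein box, CAGNTG on either strand. The Siglech window is chr7:55767934-55768183, that of Irf8 chr8:120736108-120736357 (the first of its starts) and that of Clec9a chr6:129408612-129408861, all on the plus strand.
Siglech: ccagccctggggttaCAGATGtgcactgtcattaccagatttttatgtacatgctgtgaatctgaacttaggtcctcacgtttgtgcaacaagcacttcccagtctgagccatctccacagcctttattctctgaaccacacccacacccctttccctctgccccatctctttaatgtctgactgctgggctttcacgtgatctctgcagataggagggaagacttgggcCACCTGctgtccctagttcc
Irf8: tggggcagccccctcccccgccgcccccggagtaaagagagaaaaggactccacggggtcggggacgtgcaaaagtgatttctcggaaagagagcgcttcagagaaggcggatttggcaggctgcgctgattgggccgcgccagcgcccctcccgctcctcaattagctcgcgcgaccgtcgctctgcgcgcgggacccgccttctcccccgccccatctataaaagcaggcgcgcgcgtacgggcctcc
Clec9a: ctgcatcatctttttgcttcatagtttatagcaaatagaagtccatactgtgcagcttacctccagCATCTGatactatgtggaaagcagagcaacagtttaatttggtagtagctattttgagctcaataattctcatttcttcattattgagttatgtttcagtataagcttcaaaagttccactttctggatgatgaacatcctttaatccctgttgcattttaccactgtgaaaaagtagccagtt
The Siglech window held 2 E protein boxes, one of them at -20 to -15 from the start, and the Clec9a window held 1, at -184 to -179. The first Irf8 window held none, and the window of its second start, not printed, held 1 at -205 to -200. Of the windows not printed, that of Batf3 held none, that of Flt3 1 and that of Zbtb46 2. The Zbtb46 window, chr2:181424389-181424638, lies inside the span of the gene given below and not before its outermost start. The same holds for the second Irf8 window, chr8:120738389-120738638, which lies inside the Irf8 span given above. An E protein box was present in 44.8% of the 32851 promoter windows of the same length, so a match in a single window is common. GAAANNGAA, an IRF repeat, was in 7.13% of windows and GGAANNGAA, an ETS-IRF composite, in 6.99%, both strands searched, and neither was in any window of these genes. Overlapping sites can match both IRF patterns. Windows were searched for 6 of the 10 genes. Tcf4, Clec10a, Clec4a4 and Esam were not among them, so sites before their starts were not tested.

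The type 2 genes were all low and none was called. Clec4a4 (chr6:122990367-123024105, plus strand) encodes DCIR2, the C-type lectin that marks the CD8-negative splenic subset, and had 60 control and 56 cKO reads. Its levels were 58.0 and 63.7, a difference of 0.13 (-0.42 to 0.68). Clec10a (chr11:70156197-70170834, plus strand), a lectin that binds galactose-type sugars, had 77 and 57 reads, or levels of 74.5 and 64.8, and differed by -0.20 (-0.72 to 0.31). Esam (chr9:37528078-37538319, plus strand), an adhesion molecule of endothelium and of the Notch2-dependent subset, had 39 and 33 reads, or levels of 37.7 and 37.5, and differed by -0.01 (-0.72 to 0.70). All 3 intervals hold 0. That of Clec4a4 reaches past 1.5-fold on the higher side alone, that of Clec10a on the lower side alone and that of Esam on both. Clec10a and Esam were above 0 with T cell genes set equal. Counting error understates the uncertainty of such low genes: of 1314 genes with 30 to 80 control reads, 119 had 0 in the cKO library, against 2 of 1384 genes with 81 to 200 control reads.

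The genes shared across subsets moved apart. Zbtb46 (chr2:181387762-181459426, minus strand), a zinc finger factor of committed conventional dendritic cells, had 460 control and 292 cKO reads, or levels of 445 and 332. Its difference of -0.42 (-0.64 to -0.21) was the lowest of the 10 and did not reach 1.5-fold. Flt3 (chr5:147330741-147400489, minus strand), the receptor for FLT3 ligand, had 714 and 827 reads, or levels of 691 and 940. Its difference of 0.44 (0.30 to 0.59) also stayed under the threshold, and the ratio of Zbtb46 to Flt3 was lower in the cKO library by -0.87 on the log2 scale (-1.13 to -0.61). The scaling matters for these small differences: with T cell genes set equal, Zbtb46 stood at -0.11 and Flt3 at 0.76.

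**Figure D1:**
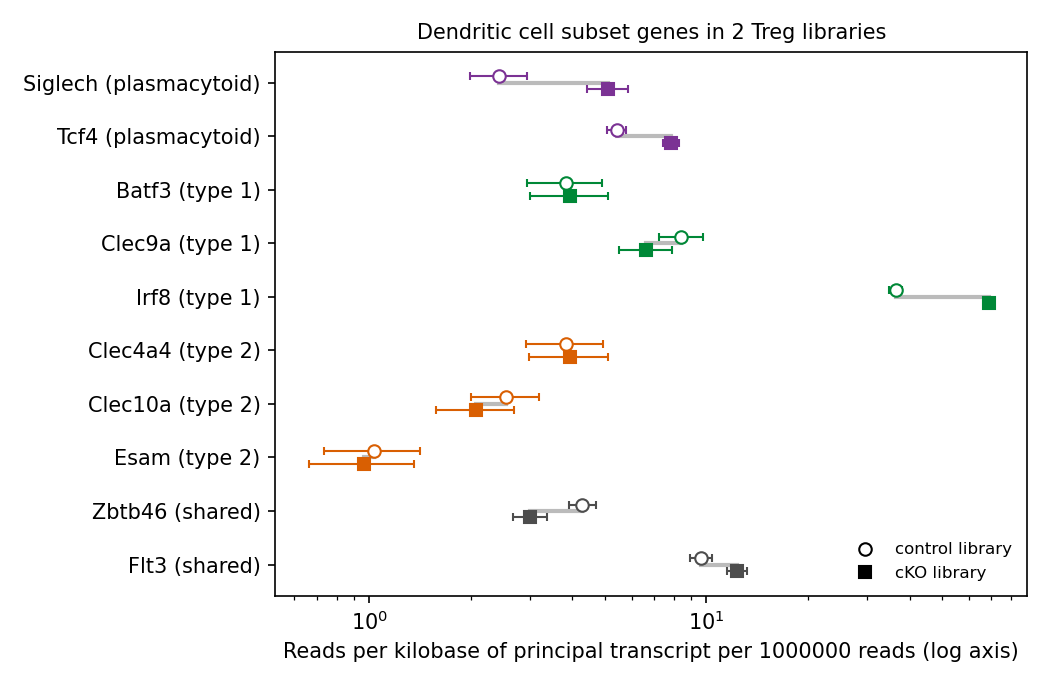
Reads per kilobase of principal transcript per 1000000 reads (log axis) of each gene in the control library (open circles) and the cKO library (filled squares), with 95% exact counting intervals. Irf8 is the highest gene in both libraries, at 36.4 and 68.6, and Esam the lowest, at 1.03 and 0.965.

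In reads per kilobase of principal transcript per 1000000 reads, a scale on which genes can be compared, Irf8 was the highest of the 10 in the control library at 36.4, followed by Flt3 at 9.65 and Clec9a at 8.43. Tcf4 stood at 5.43, Zbtb46 at 4.28, Batf3 at 3.82 and Clec4a4 at 3.82. Clec10a at 2.54, Siglech at 2.43 and Esam at 1.03 closed the order. The intervals of Flt3 and Clec9a overlapped, as did those of each neighbour from Zbtb46 down to Siglech. In the cKO library Irf8 stood at 68.6, Flt3 at 12.3, Tcf4 at 7.85, Clec9a at 6.63 and Siglech at 5.10, so that Siglech went from place 9 to place 5. Batf3 at 3.95, Clec4a4 at 3.94, Zbtb46 at 3.001, Clec10a at 2.08 and Esam at 0.965 followed. The interval of every gene from Tcf4 down to Zbtb46 overlapped that of the next, and that of Clec10a did not overlap that of Esam. With the length of all exons of a gene in place of its principal transcript, Siglech went from place 8 to place 4 and Tcf4 from place 7 to place 5. On the principal-transcript scale Cd3e stood at 157 in the control and 127 in the cKO library. Foxp3 stood at 19.9 and 19.4, below Irf8 in both libraries. That order depends on the length used. By the length of all exons, Irf8 was below Foxp3 in the control library (14.7 against 16.7) and above it in the cKO library (27.7 against 16.2). Itgax, which encodes the dendritic cell integrin CD11c, stood at 14.0 and 20.6.

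The rule that groups these genes asks how the subsets compare. The median difference was 0.89 for the plasmacytoid genes, 0.13 for the type 1 genes and -0.01 for the type 2 genes. Summed over each subset, reads of the plasmacytoid genes went from 1047 to 1434, a log2 ratio of 0.69 (0.57 to 0.80). Those of the type 1 genes went from 2331 to 3761, a log2 ratio of 0.92 (0.85 to 0.999), and most of these reads were of Irf8. Those of the type 2 genes went from 176 to 146, a log2 ratio of -0.04 (-0.36 to 0.29). The median and the sum thus put the plasmacytoid and type 1 subsets in opposite orders.

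Ratios between genes within a library do not depend on how the libraries are scaled, and 21 pairs of genes from different subsets were compared. In 11 of them the 95% interval of the change in ratio did not hold 0, and with intervals widened to 99.76% to allow for 21 pairs, 9 did not. The pairs lost by widening were Siglech over Esam (-0.04 to 2.40) and Irf8 over Esam (-0.07 to 2.12). By the 95% intervals, which the ranges below are, Siglech gained on 5 of the 6 type 1 and type 2 genes. The gain was 1.42 over Clec9a (0.92 to 1.91), 1.36 over Clec10a (0.73 to 1.995), 1.17 over Esam (0.37 to 1.97), 1.03 over Clec4a4 (0.37 to 1.69) and 1.02 over Batf3 (0.37 to 1.68). Over Irf8 it was 0.16 (-0.20 to 0.52), so Siglech and Irf8 were not told apart. Tcf4 gained 0.88 over Clec9a (0.51 to 1.24) and 0.82 over Clec10a (0.29 to 1.36), and fell behind Irf8 by -0.38 (-0.53 to -0.24). Of the 9 pairs of a type 1 with a type 2 gene, the 3 whose interval lay above 0 were those of Irf8, with gains of 0.87 over Clec4a4 (0.32 to 1.43), 1.01 over Esam (0.30 to 1.73) and 1.21 over Clec10a (0.69 to 1.73). Batf3 and Clec9a against the type 2 genes gave ratios between -0.39 and 0.34, all with intervals that hold 0. Tcf4 over Batf3, Clec4a4 and Esam also gave intervals that hold 0. The 21 pairs share their genes and are not independent of each other.

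**Figure D2:**
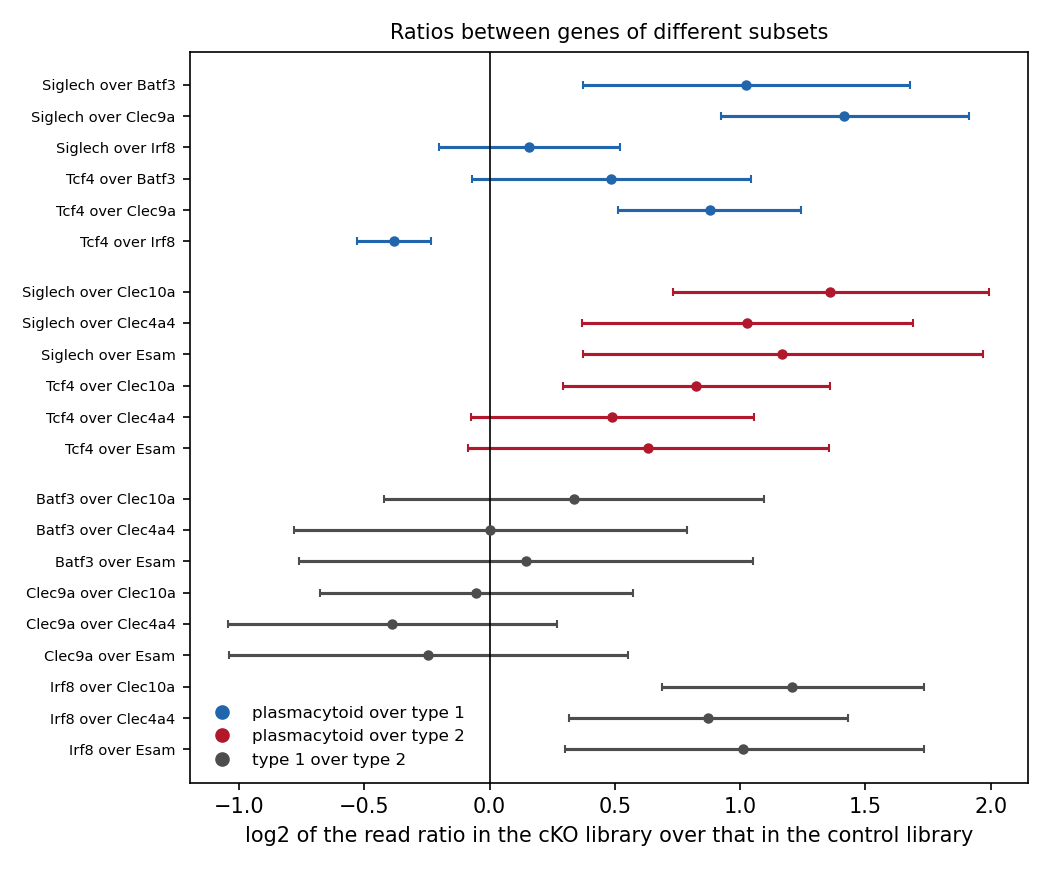
Log2 of the read ratio between genes of different subsets in the cKO library over the same ratio in the control library, for 21 pairs, with exact 95% counting intervals. Points right of 0 are gains of the first gene; the pairs led by Siglech lie right of 0 except for the interval of Siglech over Irf8, which spans it, and Tcf4 over Irf8 lies left of 0 at -0.38.

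The medians of the B cell and macrophage markers exceeded the difference of every subset gene. All 12 B cell markers were called higher in the cKO library, with differences from 1.11 to 3.10 and a median of 2.38, and their reads went from 448 to 2154 per 1000000. All 16 macrophage markers were called higher, from a difference of 0.78 for Slc40a1 upwards, with a median of 2.28, and their reads went from 299 to 867 per 1000000; Marco had 0 control and 20 cKO reads. Of 6 monocyte markers 4 were called higher (median 0.79), and of 8 CD8 T and NK cell genes 6 (median 0.74). The T cell core genes had a median of -0.31, with 3 of 16 called lower and 0 higher, and 3011 and 2244 reads per 1000000. Of 10 Treg cell genes 2 were called in each direction (median -0.03). Progenitor and erythroid genes were lower, in 6 of 6 and 6 of 7 genes (medians -1.29 and -1.19). Endothelial markers had 2 higher and 5 lower of 11 (median -0.54), megakaryocyte markers 4 and 1 of 8 (0.69), granulocyte markers 2 and 3 of 13 (0.27) and plasma cell genes 2 and 0 of 6 (0.15). Reads of the 10 subset genes together were 234 per 1000000 in the control and 352 in the cKO library.

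Set against these lists, the subset genes split. Relative to the summed B cell markers all 10 were lower in the cKO library: Siglech by -1.19 (-1.54 to -0.84), Irf8 by -1.35 (-1.43 to -1.26), Tcf4 by -1.73 (-1.86 to -1.60), Clec9a by -2.61 (-2.96 to -2.27) and Zbtb46 by -2.78 (-3.00 to -2.56). Relative to the macrophage markers Siglech differed by -0.46 (-0.81 to -0.11), Irf8 by -0.62 (-0.71 to -0.53) and Tcf4 by -1.004 (-1.13 to -0.87). Relative to the T cell core genes Siglech was higher by 1.50 (1.15 to 1.85), Irf8 by 1.34 (1.26 to 1.42), Tcf4 by 0.96 (0.83 to 1.08) and Flt3 by 0.78 (0.63 to 0.93). Clec9a at 0.08 (-0.27 to 0.42) and Zbtb46 at -0.09 (-0.31 to 0.13) were not told apart from the T cell core genes. Relative to the monocyte markers Siglech differed by 0.26 (-0.09 to 0.62), Irf8 by 0.11 (0.02 to 0.19) and Tcf4 by -0.28 (-0.40 to -0.15). The other subset genes were lower relative to the monocyte markers. Fn1 alone held 6629 of the 17590 control and 14274 of the 27901 cKO reads of the monocyte markers. It differed by 1.34 (1.30 to 1.38), against a list median of 0.79, so the comparisons with this sum lean on Fn1. Irf8 and Tcf4 are also expressed by B cells, and Irf8 by macrophages. The part of any of these cell types in the differences was not tested.

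**Figure D3:**
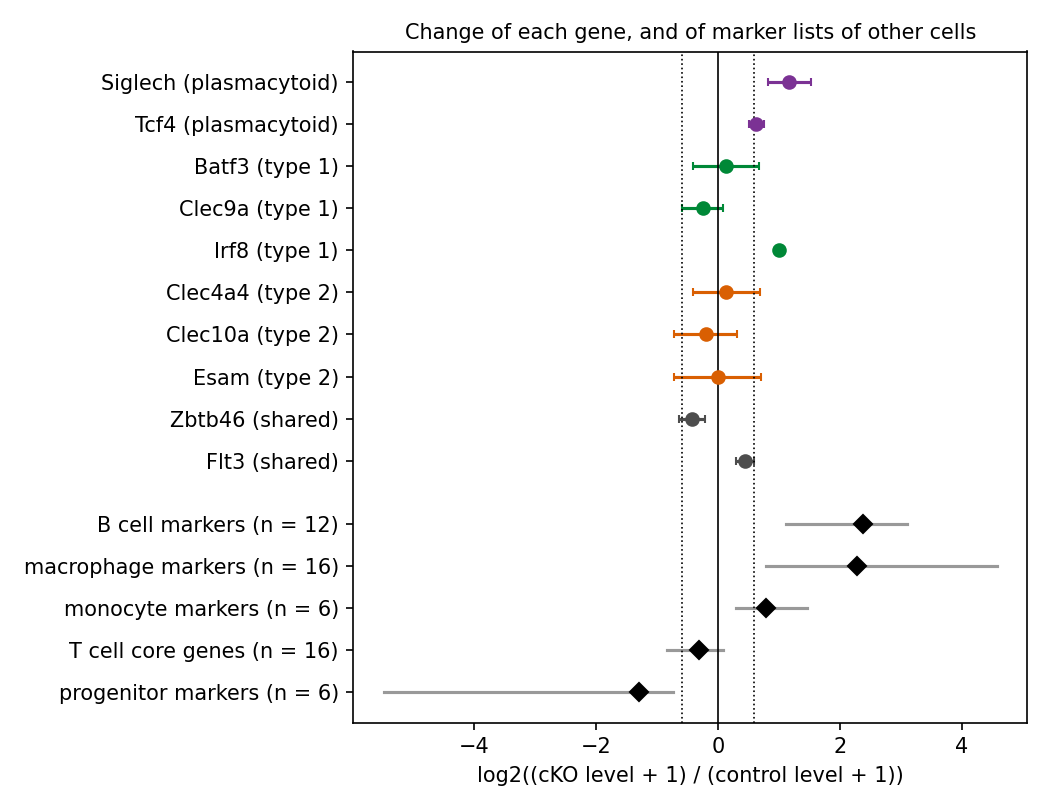
Log2 difference of each subset gene with its 95% counting interval (coloured points), and the median (diamond) and range over genes (grey line) of marker lists of other cells; dotted lines mark 1.5-fold. The B cell and macrophage medians, 2.38 and 2.28, lie right of every subset gene, and the far ends of the macrophage and progenitor lines are Marco and Mecom, which had 0 reads in 1 library and so have no defined fold.

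A wider list of 48 dendritic cell genes was examined beside the 10. Of these, 24 were called higher and 1 lower, with a median of 0.60; without Cd8a, the 1 gene that is also on the list of CD8 T cells, the counts were 23 and 1 of 47 and the median 0.58. Of 14 further plasmacytoid genes 9 were called higher and 0 lower, with a median of 0.80. Spib, an ETS factor that plasmacytoid and B cells share, went from 552 to 1995 reads (2.08, 1.95 to 2.23). Klra17, a Ly49 family gene, went from 68 to 199 reads (1.77, 1.38 to 2.20), and Ccr9, a chemokine receptor of plasmacytoid cells and of gut-homing T cells, from 268 to 450 (0.98, 0.76 to 1.20). Tlr7 and Tlr9, the endosomal nucleic acid sensors that B cells also carry, differed by 1.68 (1.51 to 1.87) and 1.73 (1.58 to 1.90). Bst2, the antigen of the antibody PDCA-1, had 341 and 288 reads and differed by -0.01 (-0.24 to 0.22), the lowest of the 14. Among the 9 calls, Klk1 with 6 and 11 reads and Cox6a2 with 5 and 7 rest on so few reads that their intervals hold 0. Siglech kept its ratio to Ccr9 within counting error (0.18, -0.24 to 0.60), fell behind Klra17 (-0.62, -1.17 to -0.07) and gained on Bst2 (1.17, 0.75 to 1.60).

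Of 14 further type 1 genes 4 were called higher and 0 lower, with a median of 0.43. Xcr1, the chemokine receptor that defines type 1 cells, had 81 control and 88 cKO reads, and its difference of 0.35 (-0.10 to 0.81) holds 0. Wdfy4, needed for cross-presentation and also expressed by B cells, went from 5693 to 9696 reads (1.001, 0.95 to 1.05). Cd8a had 449 and 1824 reads and differed by 2.25 (2.11 to 2.41); it is also the CD8 T cell coreceptor, and Cd8b1, which dendritic cells largely lack, went from 365 to 1708 reads (2.46, 2.30 to 2.63). Tlr11, which senses profilin, went from 45 to 106 reads (1.45, 0.95 to 2.01). Id2, an inhibitor of E proteins that type 1 cells need, had 1849 and 2110 reads (0.42, 0.33 to 0.51), and Cd24a was the lowest of the list with 14101 and 8680 reads (-0.47, -0.51 to -0.43). Clec9a fell behind Xcr1, by -0.61 (-1.18 to -0.03), while Batf3 over Xcr1 gave -0.22 (-0.93 to 0.50). Cadm1, an adhesion molecule of type 1 cells, had 93 and 117 reads (0.56, 0.16 to 0.97), and Tlr3, the receptor for double-stranded RNA, 94 and 108 (0.43, 0.02 to 0.85), so neither reached 1.5-fold.

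Of 10 further type 2 genes 5 were called higher and 0 lower, with a median of 0.61. The 5 were Cx3cr1, the fractalkine receptor, with 500 and 912 reads (1.10, 0.94 to 1.26), Sirpa (0.69, 0.62 to 0.75), Notch2 (0.66, 0.62 to 0.70), Itgam (0.66, 0.61 to 0.70) and Klf4 (0.65, 0.49 to 0.81). All 5 are genes that monocytes and macrophages also express. Irf4, the factor of type 2 cells, had 3144 and 2938 reads (0.14, 0.06 to 0.21), and Cd209a, the mouse DC-SIGN lectin, 116 and 103 (0.06, -0.34 to 0.46). Mgl2, the lectin next in kind to Clec10a, was the lowest with 38 and 22 reads (-0.54, -1.38 to 0.24). Clec12a, a further lectin of the list, had 884 and 1124 reads (0.58, 0.45 to 0.71), just under the threshold.

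Of 10 genes shared among dendritic cells or tied to their maturation 6 were called higher and 1 lower, with a median of 0.82. B cell and macrophage markers had higher medians, 2.38 and 2.28, and the part of those cells in these calls was not tested. Itgax had 1145 control and 1524 cKO reads (0.65, 0.53 to 0.76). Ciita, the master regulator of MHC class II, had 1455 and 3718 (1.59, 1.50 to 1.68), and Kmo, an enzyme of kynurenine metabolism, 316 and 853 (1.66, 1.48 to 1.86). Cd83 had 694 and 1183 reads (1.002, 0.87 to 1.14), and Ccr7, the receptor for migration to lymph nodes, 2394 and 1973 (-0.05, -0.13 to 0.04). Of the chemokine and cytokine genes of mature cells, Ccl22 went from 6 to 25 reads, Il12b from 0 to 25 and Ccl17 from 13 to 0, each near the depth at which genes drop to 0. Zbtb46 fell behind Itgax, with 0.402 reads for each Itgax read in the control and 0.192 in the cKO library, a change of -1.07 (-1.31 to -0.82).

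**Figure D4:**
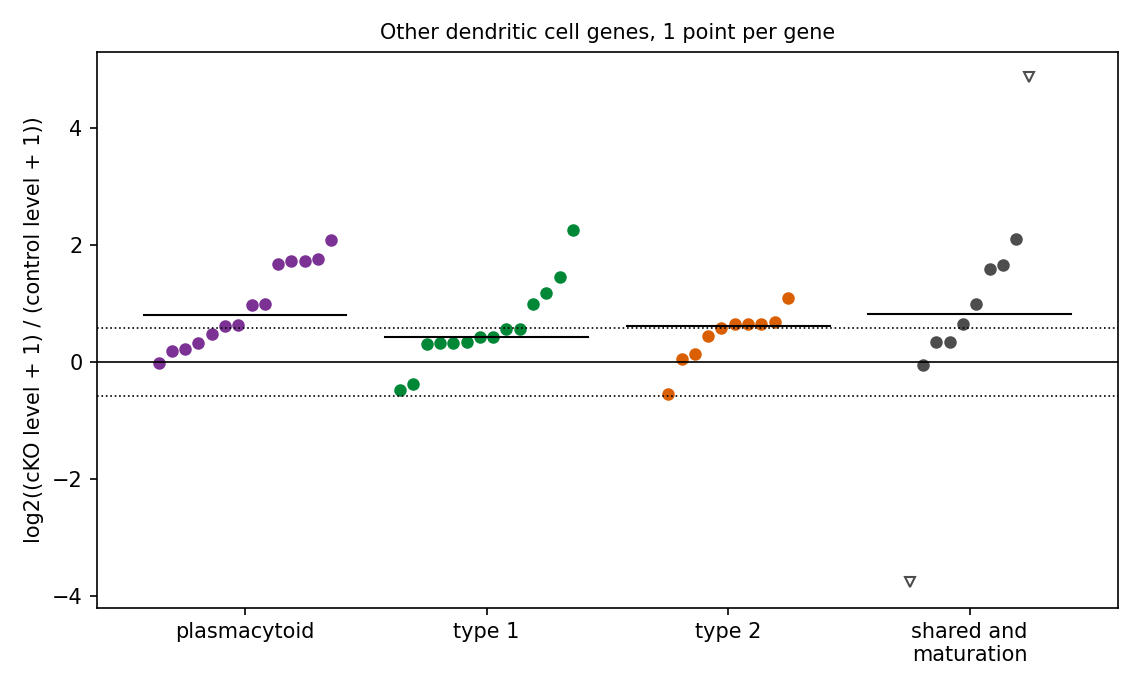
Log2 difference of 48 further dendritic cell genes, 1 point per gene, by subset, with each list's median as a bar and 1.5-fold as dotted lines. Open triangles are Ccl17 and Il12b, which had 0 reads in 1 library and so have no defined fold; the medians are 0.80, 0.43, 0.61 and 0.82 from left to right.

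In the growth factor axis, 10 of 11 genes passed the filter, 5 were called higher and 1 lower, with a median of 0.56. Flt3l, the ligand of FLT3, had 580 control and 441 cKO reads, and its difference of -0.16 (-0.34 to 0.02) holds 0. Flt3 gained on its ligand, with 1.23 Flt3 reads for each Flt3l read in the control and 1.88 in the cKO library (0.61, 0.37 to 0.84). Csf1r, the receptor of macrophages and monocytes, went from 2197 to 4145 reads (1.15, 1.07 to 1.22), and Flt3 fell behind it by -0.70 (-0.87 to -0.54). Kit, the stem cell factor receptor of progenitors and mast cells, was the 1 gene called lower, from 2960 to 1408 reads (-0.84, -0.93 to -0.75), and Flt3 gained on it by 1.28 (1.11 to 1.46). Csf2ra, the GM-CSF receptor chain, went from 1445 to 2406 reads (0.97, 0.87 to 1.06), Stat3, which signals below FLT3, from 3939 to 6151 (0.88, 0.82 to 0.93), and Kitl from 0 to 9 reads. Csf2, which encodes GM-CSF, had 0 reads in both libraries. By counting error alone this allows up to 0.148 reads per 1000000 in the control and 0.164 in the cKO library. The true limit can be higher, because 119 of 1314 genes with 30 to 80 control reads also had 0 in the cKO library.

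Among 20 relatives and partners of the transcription factors 4 were called higher, with a median of 0.17. The 4 were Spib, Irf5 with 980 and 2499 reads (1.58, 1.48 to 1.69), Spi1, which encodes PU.1, with 2313 and 3220 (0.71, 0.63 to 0.79), and Batf2 with 9 and 21 (1.36, 0.27 to 2.77). Irf8 gained on Irf4, its counterpart in type 2 cells: there were 0.666 Irf8 reads for each Irf4 read in the control and 1.22 in the cKO library, a change of 0.87 (0.76 to 0.98). Irf8 gained less on Spi1, by 0.30 (0.18 to 0.41). Tcf4 gained 0.26 (0.12 to 0.41) on Tcf3 and 0.58 (0.44 to 0.73) on Tcf12, the other E proteins, and 0.20 (0.05 to 0.35) on Id2, their inhibitor. Batf3 over Batf, a relative used by T and B cells, gave 0.35 (-0.24 to 0.94). These 21 ratios to single partner genes, those of the paragraphs above included, were picked after the values were seen, and in 16 of them the interval does not hold 0.

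Relatives of the lectins and of Siglech were mostly higher: of 18 that passed the filter, out of 19, 11 were called higher and 1 lower, with a median of 1.06. The DCIR family sits with Clec4a4 on chromosome 6, and there Clec4a1 went from 204 to 624 reads (1.84, 1.62 to 2.08), Clec4a2 from 405 to 552 (0.68, 0.49 to 0.87) and Clec4a3 from 174 to 348 (1.23, 0.97 to 1.50). Summed over the family, reads went from 843 to 1580 (1.14, 1.02 to 1.26), and the share of Clec4a4 was 7.12% in the control and 3.54% in the cKO library. These are close copies and how reads that match several were assigned is not given in the sources used here, so the split among them is uncertain. Clec10a and Mgl2 are likewise a pair of near copies, and together had 115 and 79 reads (-0.31, -0.74 to 0.12). Clec9a overlaps Clec1b, a lectin of platelets, on the same strand, with exons that share up to 184 bases. Clec1b had 42 and 78 reads (1.11, 0.57 to 1.70), and with both genes together, 216 and 202 reads, the difference was 0.14 (-0.15 to 0.42); Clec9a held 80.6% of these reads in the control and 61.4% in the cKO library. Of the Siglec family, Cd22 (2.42, 2.32 to 2.53) and Siglecg (2.25, 2.08 to 2.42) are B cell receptors, and Siglec1, the sialoadhesin of macrophages, went from 53 to 136 reads (1.57, 1.12 to 2.08). Siglece (1.35, 1.20 to 1.49) and Cd33 (1.01, 0.91 to 1.11) are receptors of myeloid cells.

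Endothelial markers bear on Esam and Zbtb46, which that tissue also expresses. Cdh5, the cadherin of endothelial junctions, was lower, with 84 reads in the control and 35 in the cKO library (-1.01, -1.64 to -0.44), Tek had 22 and 0, and Stab2, of sinusoidal endothelium, was higher with 31 and 158 (2.54, 2.02 to 3.19). Esam gained on Cdh5 by 1.02 (0.08 to 1.96). Relative to the summed endothelial markers Esam differed by -0.27 (-0.99 to 0.44) and Zbtb46 by -0.69 (-0.91 to -0.46). Most reads of that sum were of Pecam1, 2339 of 3752 in the control and 2836 of 3835 in the cKO library. Pecam1 differed by 0.51 (0.43 to 0.59), against a list median of -0.54, so these 2 comparisons are largely with Pecam1. The part of endothelial RNA in either Esam or Zbtb46 was not tested.

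The scaling of the libraries moved the direction of small differences. On the deposited scale and with the TMM, median-of-ratios and library-total scalings, 6 of the 10 genes lay above 0 and 4 below, Clec9a, Clec10a, Esam and Zbtb46. Equalising the T cell core genes, which raises the cKO library by 0.31 on the log2 scale, put 9 above 0 and Zbtb46 alone below, and added Flt3 to the genes called higher, which made 4. The same scaling moved the median of all genes tested from -0.04 to 0.27 and the share of called genes that were higher from 41.6% to 60.0%, with 4798 called higher and 3198 lower in place of 2864 and 4028. Siglech, Tcf4 and Irf8 lay above 0 and Zbtb46 below it in all 5 scalings. With library totals, Tcf4 no longer reached 1.5-fold and the count of genes called higher was 2.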

How the data were processed

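RNA-seq was performed by the authors on splenic Treg cells of day 7, with 1 library for the Foxp3-Mettl14f/+ cKO genotype and 1 for littermate controls. RNA was extracted with TRIzol, polyadenylated RNA was captured on beads, and the methods state that reads were mapped to mm10 using TopHat, whereas the submitters' processing notes list bcl2fastq 2.0, STAR, StringTie and DESeq2 without their roles. The annotation and strand setting are not given in the sources used here. Each deposited value is a signal: the authors' read count of a gene over a size factor of its library. Of the values, 100% were whole multiples of the smallest in the library (0.967 and 1.14) within 0.001 reads, and division by it recovered 20239325 and 18327535 reads.

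From these values, differences were computed with a pseudocount of 1 and a minimum mean of 1, and the threshold of 1.5-fold follows the methods; the methods' 0.1, of no named quantity, was read as an adjusted p. Counting intervals were exact Clopper-Pearson intervals at 95%, and those of ratios between genes were exact conditional intervals of the odds ratio. The exact binomial test and edgeR's exact test (assumed coefficients 0.2 and 0.4) used Benjamini-Hochberg adjustment over 14863 genes, an adjusted p under 0.1 and 1.5-fold. The Clopper-Pearson, binomial and edgeR steps were tested on simulated counts with known changes. Those counts held counting error alone, without spread between animals, and the other steps were not part of that test. Symbols were matched to GENCODE vM21 (20524 of 20938 genes), and promoter windows were taken from RefSeq (GRCm38.p6). The alternatives were other pseudocounts (0.1 and 5), filters (none, or a mean of 10), scalings, a threshold of 2-fold and the count tests. Computation used edgeR 4.0.16 and DESeq2 1.42.0 under R 4.3.3, and scipy 1.17.1, numpy 2.4.6, matplotlib 3.10.9 and pandas 2.3.3 under Python 3.11.15.

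The 10 genes and all lists were chosen with earlier results of these data known. The genes named are the 10, the genes of largest difference in each direction in each list among those with a mean level of at least 10, Flt3l, Spi1, Id2, Xcr1, Itgax, Foxp3, Mettl14 and Clec1b; other names were added after their values were seen. A gene that this rule names among the relatives of the transcription factors is not reported here.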

Additional observations from a re-analysis of the deposited data

How the results depend on the processing

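No paired analysis was possible because there was 1 library per genotype, and for the same reason no replicate could be left out. The plasmacytoid and type 1 medians and that of the wider dendritic list stayed above 0 under every pseudocount, filter and scaling tried. The scaling on T cell core genes moved the plasmacytoid median to 1.20 from 0.89 the type 1 median to 0.44 from 0.13 and the type 2 median to 0.30 from -0.01; with library totals the type 1 median was 0.05. The number of the 10 genes called higher, 3, was 2 at 2-fold (Siglech and Irf8) and 2 with library totals, and fell to 1 and 0 with edgeR's exact test at assumed coefficients of variation of 0.2 and 0.4, which is the construction of that test, since a larger assumed spread calls fewer genes. With T cell core genes set equal, Tcf4 stood at 0.94, Irf8 at 1.32, Zbtb46 at -0.11 and Flt3 at 0.76, and with library totals Irf8 stood at 0.92. Depth limits the 5 genes with at most 174 reads whose intervals hold 0, namely Batf3, Clec9a, Clec4a4, Clec10a and Esam.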
